A study of Mus musculus with 12 samples.

Results

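The genes of fibroblast growth factor (FGF) signalling described here are 36 of the 54446 genes in the expression table, taken by gene name. They comprise 18 secreted ligands, 4 intracellular FGF-like genes, 5 receptor genes and 9 genes that ERK signalling commonly induces, most of which restrain it again. The genes were chosen by family and pathway membership. RNA of mouse E14 embryonic stem cells and of populations differentiated from them was sequenced in bulk, in 12 libraries, 3 for each of 4 groups. The study is concerned with how definitive endoderm arises in the mouse.

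The groups were SOX17+ cells, SOX17+/T+ cells and T+ cells, each sorted after differentiation by reporter fluorescence, and undifferentiated mESC, for which no sort is stated. SOX17 is an endoderm transcription factor, and T (Brachyury), a T-box factor, marks the streak and the mesoderm that leaves it. A group is thus defined by reporter signal in a differentiating culture and can hold more than 1 cell type. All groups derive from the same E14 line, which was maintained with serum and LIF over a layer of irradiated mouse embryonic fibroblasts. The sources used here give neither the day of sorting nor the inducing factors nor the number of clones. The labels number 3 replicates a group but name no separate cultures. The p-values therefore reflect only how far these libraries vary, which may be technical variation. In bulk RNA, fewer cells of a type and less RNA per cell cannot be told apart.

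FGF ligands bind receptor tyrosine kinases together with heparan sulphate and switch on the RAS to ERK cascade. The cascade induces ETS factors such as Etv4 and Etv5, and it also induces its own brakes, the Sprouty and Spred proteins and the dual-specificity phosphatases. In mouse embryonic stem cells, FGF4 made by the cells themselves drives ERK and prepares them to leave self-renewal, and in the gastrulating embryo FGF8 and FGF4 act in the primitive streak, where FGF8 is needed for cells to move away from it.

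The libraries had 13953 to 15057 genes at 1 TPM or more (TPM is abundance corrected for transcript length and scaled to the library total, from which the read depth cannot be known), and mitochondrially encoded genes took 5.71 to 6.93% of TPM in the sorted libraries, against 4.01 to 4.34% in mESC. The reporter genes used for the sort followed the labels. Sox17 averaged 229.9 TPM in SOX17+, 139 in SOX17+/T+, 10.3 in T+ and 0.638 in mESC, whereas T averaged 2.32, 44.5, 127 and 0.647 TPM in the same order of groups. Pou5f1 was at 5.69, 25.1, 92 and 1367 TPM. Other markers mostly did so: of 6 definitive endoderm markers 4 were higher in SOX17+ than in T+, while Cxcr4 and Gsc were lower, and of 6 streak and nascent mesoderm markers 5 were lower in SOX17+ than in T+, while Eomes was higher. Over all tested genes 25.4% were higher and 29.0% lower in SOX17+ than in T+. The 5 mESC markers were lower in every sorted group than in mESC. The 14 feeder fibroblast markers summed to 60.3 to 65 TPM in SOX17+, 69.1 to 80.8 in SOX17+/T+, 101 to 116 in T+ and 3261 to 4056 in mESC, with S100a4 at 0 in every SOX17+ and SOX17+/T+ library and Lum at 0 in every SOX17+ and T+ library. All 14 of 14 feeder markers were lower in each sorted group than in mESC. Of all tested genes, 50.0% were lower than in mESC in SOX17+, 50.3% in SOX17+/T+ and 49.5% in T+. Of the 14 markers, 7 averaged under 1 TPM in SOX17+, 7 in SOX17+/T+ and 6 in T+. Genes were tested if they reached 1 TPM in at least 3 libraries, which favoured lower calls for such markers. The 6 neural markers summed to 2.37 to 3.51, 1.96 to 2.34, 3.83 to 4.96 and 133 to 137 TPM.

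Values were compared as log2(TPM + 1) with limma, and calls were made at an adjusted p (Benjamini-Hochberg) under 0.05 over the 16097 genes that reached 1 TPM in at least 3 libraries; differences below are on that log2 scale with their standard error (SE), and they understate the change of weakly expressed genes. Of the 36 FGF genes, 27 were tested. The 9 others (Fgf1, Fgf6, Fgf9, Fgf12, Fgf16, Fgf20, Fgf21, Fgf22 and Fgf23) stayed at or under 1.21 TPM, a value reached by Fgf1 in mESC replicate 1. Fgf6 was listed at 0 in every library.

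Against mESC, the sorted cells had less of the ligand Fgf4 and of most feedback transcripts and more Fgf8, Fgf3, Fgf10, Fgf15 and the receptors Fgfr2, Fgfr3 and Fgfrl1. In SOX17+ cells 14 of the 27 tested FGF genes were called higher than in mESC and 13 lower; over all tested genes 35.4% were called higher and 50.0% lower. SOX17+/T+ cells had 14 higher and 13 lower, beside 34.9% and 50.3% of all genes. T+ cells had 10 higher, 14 lower and 3 not called (Fgf5, Fgf14 and Fgfr1), beside 34.5% and 49.5% of all genes; after quantile normalization 12 were higher and 11 lower in T+. With so many genes called in both directions, these counts do not set FGF genes apart, and the roles and sizes of the changes carry the description. The median difference of the tested FGF genes was 0.45 in SOX17+, 0.49 in SOX17+/T+ and -0.22 in T+, against -0.18, -0.19 and -0.17 over all tested genes. Of all genes called, 41.5%, 40.9% and 41% were higher in SOX17+, SOX17+/T+ and T+ than in mESC, and 52.4%, 53.2% and 53.4% after quantile normalization, which moved the all-gene median to 0.05, 0.06 and 0.07. The 3 comparisons share the mESC libraries, and in each of them differentiation, loss of the feeder layer, culture medium and sorting cannot be told apart.

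**Figure D1:**
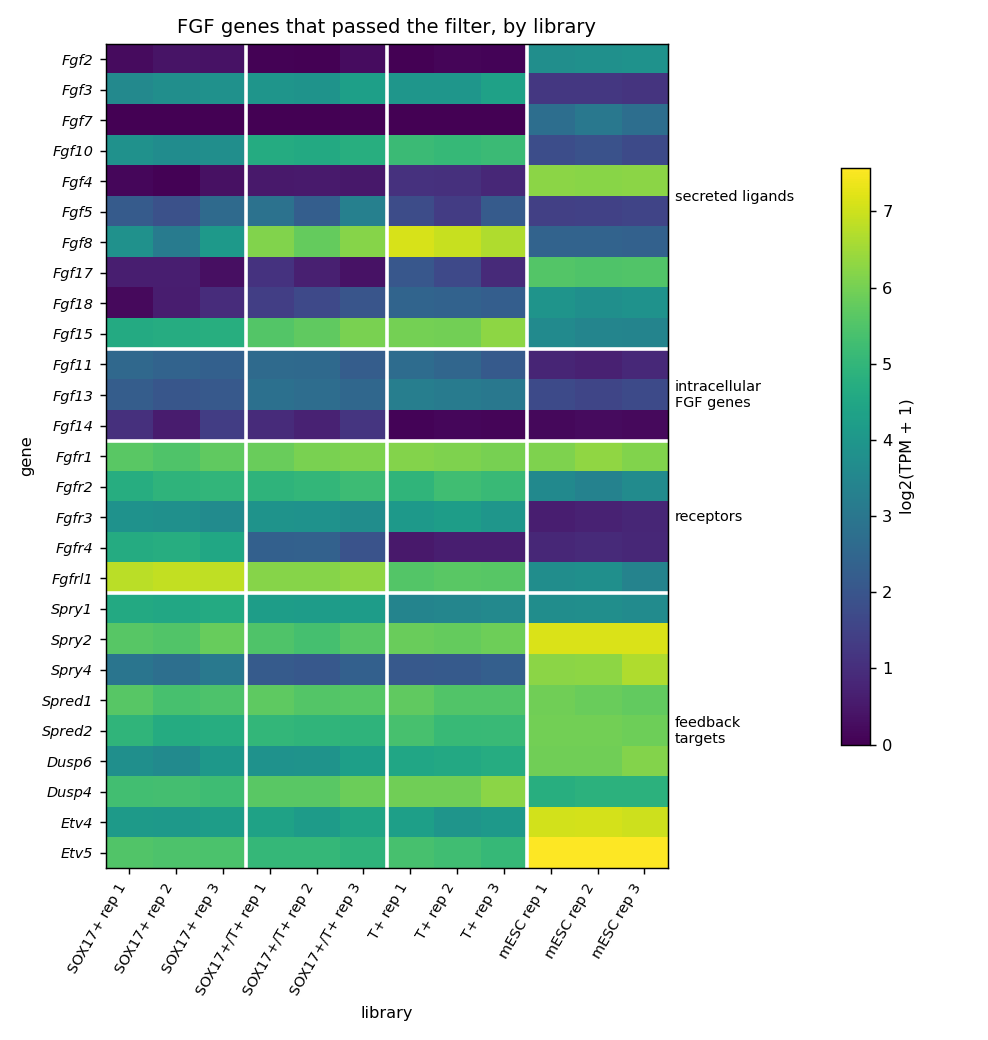
The 27 tested FGF genes (rows, grouped by role) in each of the 12 libraries (columns, grouped by population), coloured by log2(TPM + 1). The 3 libraries of a group resemble each other, and the feedback rows Spry2, Spry4, Dusp6, Etv4 and Etv5 are brightest in mESC, where Spry2 lies at 139.9 to 142 TPM.

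Among the secreted ligands, 5 were higher and 5 lower than in mESC in SOX17+ cells, as in SOX17+/T+ cells, and 4 were higher, 5 lower and 1 not called in T+ cells. The shares of all tested genes were 35.4% higher and 50.0% lower in SOX17+, 34.9% and 50.3% in SOX17+/T+, and 34.5% and 49.5% in T+. The 5 that were lower in every sorted group were Fgf4, Fgf17, Fgf18, Fgf2 and Fgf7. Fgf4 measured 0.0948, 0.0278 and 0.257 TPM in SOX17+, 0.444, 0.476 and 0.406 TPM in SOX17+/T+, 1.1, 1.08 and 0.787 TPM in T+, and 75, 74.1 and 74.9 TPM in mESC. No group overlapped another, and what remained of Fgf4 was graded, least in SOX17+ and most in T+. The differences from mESC were -6.08 ± 0.09 in SOX17+ (limma, adjusted p = 2.8e-15), -5.71 ± 0.09 in SOX17+/T+ (4.7e-15) and -5.25 ± 0.09 in T+ (1.0e-14). Outside mESC, Fgf4 reached 1 TPM only in T+ replicates 1 and 2. It therefore passed the filter of 1 TPM in at least 3 libraries only with the mESC libraries. The filter thus favoured its calls as lower, which are a description only.

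Fgf17 and Fgf18, which belong to the subfamily of Fgf8, were high in mESC as well. Fgf17 measured 0.557, 0.547 and 0.25 TPM in SOX17+, 1.15, 0.594 and 0.286 TPM in SOX17+/T+, 3.13, 2.17 and 0.857 TPM in T+, and 46, 44.1 and 44.8 TPM in mESC. The SOX17+/T+ libraries overlapped both single-positive groups, and T+ lay above SOX17+ in every library. Fgf18 measured 0.143, 0.536 and 0.967 TPM in SOX17+, 1.65, 2.19 and 2.99 TPM in SOX17+/T+, 4.39, 4.2 and 3.84 TPM in T+, and 14.2, 12.6 and 13.4 TPM in mESC. For Fgf18 the groups did not overlap, and their order was that of Fgf4. Relative to mESC, Fgf17 differed by -4.99 ± 0.26, -4.81 ± 0.26 and -3.99 ± 0.26 in SOX17+, SOX17+/T+ and T+, and Fgf18 by -3.25 ± 0.18, -2.15 ± 0.18 and -1.48 ± 0.18 (limma, adjusted p at most 4.2e-06).

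Fgf2, the basic FGF, and Fgf7, a mesenchymal ligand for the epithelial form of FGFR2, were close to absent from the sorted populations. Fgf2 measured 0.165, 0.319 and 0.296 TPM in SOX17+, 0.0403, 0.000156 and 0.18 TPM in SOX17+/T+, 0.00879, 0.0648 and 0.0534 TPM in T+, and 12.5, 13 and 13.5 TPM in mESC (-3.48 ± 0.08, -3.71 ± 0.08 and -3.75 ± 0.08 relative to mESC). Fgf7 was listed at 0 in all SOX17+ and T+ libraries, at 0, 0 and 0.0295 TPM in SOX17+/T+, and at 5.63, 7.14 and 5.64 TPM in mESC. Both genes passed the filter only through the mESC libraries. The direction of their difference from mESC was thus set by the filter, and their calls as lower are a description only. The mESC libraries are also those in which the feeder fibroblast markers summed to 3261 to 4056 TPM, and the part of feeder RNA in the mESC level of Fgf2, Fgf7 or any other ligand was not tested.

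The 4 ligands that were higher than in mESC in all sorted groups were Fgf8, Fgf15, Fgf10 and Fgf3, and all 4 had their highest mean in T+. Fgf8 (ENSMUSG00000025219.13, chr19:45736798-45742915 of GRCm38, minus strand) measured 13.1, 7.82 and 16.2 TPM in SOX17+, 69.4, 54.1 and 72.4 TPM in SOX17+/T+, 138, 122 and 100.1 TPM in T+, and 4.32, 4.32 and 4.06 TPM in mESC. The groups did not overlap, and the double-positive libraries lay between the single-positive ones. Fgf8 was higher than in mESC by 1.30 ± 0.22 in SOX17+ (limma, adjusted p = 2.2e-04), 3.65 ± 0.22 in SOX17+/T+ (4.1e-08) and 4.52 ± 0.22 in T+ (6.3e-09).

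Fgf10, a mesenchymal ligand of limb and lung buds, measured 13.3, 11.8 and 12.5 TPM in SOX17+, 24.3, 23.2 and 26.1 TPM in SOX17+/T+, 34.7, 32.7 and 34.7 TPM in T+, and 2.48, 2.77 and 2.25 TPM in mESC. Each group stood clear of the next, in the same order as for Fgf8, and the differences from mESC were 1.95 ± 0.07, 2.87 ± 0.07 and 3.33 ± 0.07 in SOX17+, SOX17+/T+ and T+ (limma, adjusted p at most 1.0e-11). Fgf15, the mouse counterpart of human FGF19 and an intestinal hormone in the adult, measured 23.6, 24.6 and 26 TPM in SOX17+, 45.6, 52.1 and 65.6 TPM in SOX17+/T+, 62.8, 61 and 77.3 TPM in T+, and 11.3, 9.8 and 9.73 TPM in mESC. Here SOX17+/T+ overlapped T+, and SOX17+ lay between them and mESC (an opposite-strand gene, Gm26793, overlaps Fgf15 at up to 1.57 TPM; 1.19 ± 0.12, 2.28 ± 0.12 and 2.59 ± 0.12 relative to mESC; limma, adjusted p at most 1.2e-06). Fgf3, a ligand of the streak and later of the otic region, measured 10.9, 12.4 and 13.2 TPM in SOX17+, 14.3, 13.9 and 18.5 TPM in SOX17+/T+, 14.8, 14.9 and 19.2 TPM in T+, and 1.33, 1.33 and 1.18 TPM in mESC. The SOX17+ libraries lay below the other sorted libraries, which overlapped each other, and the differences from mESC were 2.53 ± 0.12, 2.85 ± 0.12 and 2.92 ± 0.12 (limma, adjusted p at most 1.6e-10).

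Fgf3, Fgf4 and Fgf15 lie in a row on the plus strand of chromosome 7, Fgf3 at chr7:144838083-144844436, Fgf4 at chr7:144847367-144865243 and Fgf15 at chr7:144896531-144900953 (GRCm38), with 2.93 kb between Fgf3 and Fgf4 and 31.3 kb between Fgf4 and Fgf15. In every sorted group the outer 2 genes were higher than in mESC and the middle one was lower. The 250 bases before the RefSeq starts of Fgf3 and Fgf4 (GRCm38.p6, plus strand, 5′ to 3′) are shown because these neighbours moved in opposite directions. They are chr7:144838362-144838611 for Fgf3, with 55.2% G and C and 4 CpG pairs, and chr7:144861136-144861385 for Fgf4, with 71.2% and 21 CpG pairs. Both starts lie inside the longer spans that the table gives. Neither stretch nor the 50 bases after it holds the ETS, CRE, T-box or SOX letters named further on, so neither has capitals.
Fgf3: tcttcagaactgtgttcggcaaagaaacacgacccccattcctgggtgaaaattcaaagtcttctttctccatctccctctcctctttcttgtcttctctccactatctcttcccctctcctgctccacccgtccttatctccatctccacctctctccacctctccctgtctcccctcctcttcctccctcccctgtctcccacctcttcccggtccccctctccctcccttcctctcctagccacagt
Fgf4: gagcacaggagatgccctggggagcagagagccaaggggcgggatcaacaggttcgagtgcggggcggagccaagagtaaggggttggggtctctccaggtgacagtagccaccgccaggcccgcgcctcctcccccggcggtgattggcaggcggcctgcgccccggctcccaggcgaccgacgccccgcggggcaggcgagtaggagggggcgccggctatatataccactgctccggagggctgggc

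Fgf5, a ligand of the primed epiblast, had its highest mean in SOX17+/T+. It measured 3.48, 2.66 and 5.12 TPM in SOX17+, 6.31, 3.82 and 8.76 TPM in SOX17+/T+, 2.39, 1.56 and 3.51 TPM in T+, and 1.68, 1.74 and 1.94 TPM in mESC. In each sorted group replicate 3 was the highest library and replicate 2 the lowest, and SOX17+/T+ exceeded T+ and mESC in every library while SOX17+ overlapped SOX17+/T+ and T+. Fgf5 was higher than in mESC by 1.33 ± 0.27 in SOX17+/T+ (limma, adjusted p = 7.6e-04) and by 0.74 ± 0.27 in SOX17+ (0.025), and in T+ the difference was 0.29 ± 0.27 (0.34). In limma the SOX17+ call was lost without SOX17+ replicate 3 (0.54, adjusted p = 0.099), mESC replicate 1 (0.71, 0.067) or mESC replicate 2 (0.73, 0.062).

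The make-up of the ligand RNA thus differed among the populations, but less clearly between SOX17+/T+ and T+. Libraries of these groups overlapped in their shares of Fgf8, Fgf15, Fgf10 and Fgf17, though not of Fgf3 or Fgf4. The shares were not tested. Secreted ligands summed to 66.4, 61.8 and 75.3 TPM in SOX17+, 164, 151 and 197 TPM in SOX17+/T+, 262, 240.5 and 241 TPM in T+, and 176, 172 and 173 TPM in mESC. SOX17+ cells held the least ligand RNA and T+ cells the most, and SOX17+/T+ overlapped mESC in total. Fgf15 was the leading ligand of SOX17+ cells with 36.6 ± 2.79% of the sum (SD, n = 3), Fgf8 that of SOX17+/T+ cells with 38.3 ± 3.5% and of T+ cells with 48.4 ± 6%, and Fgf4 that of mESC with 43 ± 0.422%, followed there by Fgf17 with 25.9 ± 0.244%. Fgf4 took at most 0.45% of the ligand sum in any sorted library.

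**Figure D2:**
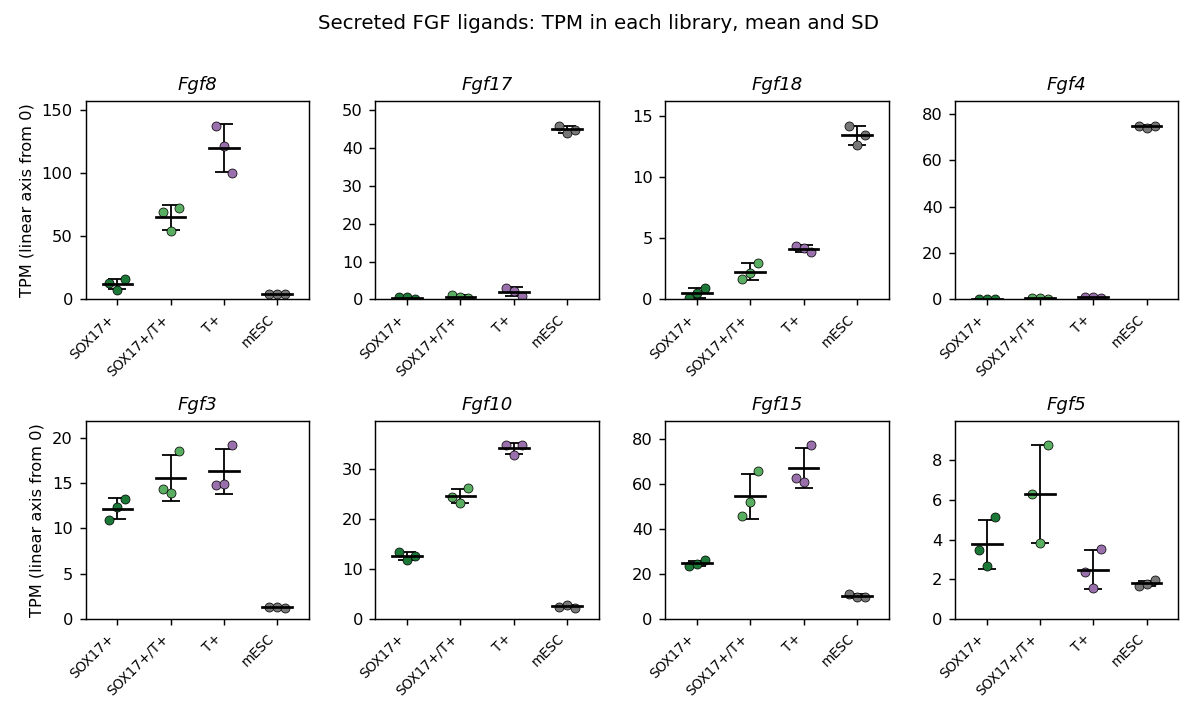
TPM of 8 secreted FGF ligands in each library (points) with the group mean and SD (bars), on linear axes that start at 0, for SOX17+, SOX17+/T+, T+ and mESC from left to right. The group means of Fgf8, Fgf3, Fgf10 and Fgf15 are lowest among sorted cells in SOX17+ and highest in T+, whereas Fgf17, Fgf18 and Fgf4 are highest in mESC, where Fgf4 lies at 74.1 to 75 TPM.

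The intracellular FGF genes encode FGF homologous factors, which are not secreted and bind voltage-gated sodium channels. Fgf13 measured 3.67, 3.06 and 3.33 TPM in SOX17+, 5.9, 5.56 and 4.75 TPM in SOX17+/T+, 8.37, 7.91 and 7.25 TPM in T+, and 2.24, 1.99 and 2.25 TPM in mESC. The groups did not overlap and stood in the order of the Fgf8 groups, with differences from mESC of 0.46 ± 0.09, 1.02 ± 0.09 and 1.48 ± 0.09 (limma, adjusted p at most 2.4e-04). Fgf11 was higher than in mESC in all sorted groups (means of 4.42, 4.6 and 4.49 TPM in SOX17+, SOX17+/T+ and T+, and 0.727 TPM in mESC), and its library values ran from 3.46 to 5.34 TPM over the sorted libraries. Fgf14 reached at most 1.57 TPM, with means of 1.04 TPM in SOX17+, 0.942 in SOX17+/T+, 0.0761 in T+ and 0.14 in mESC. It passed the filter only through SOX17+ replicates 1 and 3 and SOX17+/T+ replicate 3. The filter thus favoured its calls as higher in these groups.

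Among the receptors, 4 were higher and 1 lower than in mESC in SOX17+ and in SOX17+/T+ cells, and 3 were higher, 1 lower and 1 not called in T+ cells. Of all tested genes, 35.4% were higher and 50.0% lower in SOX17+, 34.9% and 50.3% in SOX17+/T+, and 34.5% and 49.5% in T+. Fgfr4, a receptor kinase best known from liver and other endoderm organs (ENSMUSG00000005320.9, chr13:55152640-55168759 of GRCm38, plus strand), measured 24.3, 25.4 and 21.9 TPM in SOX17+, 4.05, 4.07 and 2.87 TPM in SOX17+/T+, 0.423, 0.563 and 0.559 TPM in T+, and 0.802, 0.887 and 0.792 TPM in mESC. No groups overlapped, every SOX17+ library stood far above the rest, and T+ lay below mESC. Relative to mESC, Fgfr4 was higher by 3.76 ± 0.10 in SOX17+ (limma, adjusted p = 9.1e-13) and by 1.34 ± 0.10 in SOX17+/T+ (3.6e-08), and lower in T+ at -0.27 ± 0.10 (0.026). In limma the T+ call was lost without T+ replicate 1 (-0.23, adjusted p = 0.089) or mESC replicate 2 (-0.25, 0.075), and under quantile normalization the sign turned (0.22, 0.067).

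Fgfrl1, a receptor that binds FGFs but has no kinase domain (ENSMUSG00000008090.14, chr5:108692382-108706924, plus strand), measured 109, 117 and 114 TPM in SOX17+, 72.8, 72.5 and 78.8 TPM in SOX17+/T+, 46.1, 48.6 and 47.4 TPM in T+, and 12.1, 12.8 and 9.52 TPM in mESC. The groups formed 4 separate steps, with differences from mESC of 3.20 ± 0.08, 2.61 ± 0.08 and 1.96 ± 0.08 (limma, adjusted p at most 5.7e-11). Fgfr3, another receptor kinase, measured 13.5, 13 and 11.6 TPM in SOX17+, 13.9, 13.6 and 12 TPM in SOX17+/T+, 15.9, 17.7 and 14.9 TPM in T+, and 0.569, 0.66 and 0.774 TPM in mESC. It was near absent from mESC, and T+ lay above the other sorted groups, which overlapped (3.04 ± 0.08, 3.08 ± 0.08 and 3.36 ± 0.08 relative to mESC; limma, adjusted p at most 1.0e-12).

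Fgfr1, the main receptor of epiblast and mesoderm, was abundant throughout. It measured 49.2, 44 and 51.5 TPM in SOX17+, 56.9, 65.9 and 67.7 TPM in SOX17+/T+, 70.9, 68.4 and 64 TPM in T+, and 68.5, 78.4 and 70.1 TPM in mESC. SOX17+ lay below all other groups (-0.58 ± 0.08 relative to mESC, limma, adjusted p = 1.0e-05), SOX17+/T+ overlapped T+, and T+ overlapped mESC (-0.09 ± 0.08, 0.28). The small SOX17+/T+ difference from mESC (-0.19 ± 0.08, 0.036) was lost without SOX17+/T+ replicate 1 (-0.11, 0.18) or mESC replicate 2 (-0.13, 0.16) and turned to 0.16 (0.067) under quantile normalization, which also turned the T+ difference to 0.24 (0.0082).

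Fgfr2 measured 25.6, 29.2 and 30.5 TPM in SOX17+, 29.6, 31.1 and 35.8 TPM in SOX17+/T+, 30.0, 37.2 and 34.1 TPM in T+, and 11, 9.16 and 11.7 TPM in mESC. The sorted groups overlapped and all lay above mESC (1.35 ± 0.10, 1.52 ± 0.10 and 1.58 ± 0.10; limma, adjusted p at most 3.8e-08). Its value is uncertain, because the table gives Fgfr2 a span of 2.96 Mb (chr7:130162451-133123350, minus strand) that overlaps 69 other genes, 36 on the same strand, of which 13 reached 1 TPM. The table is by gene, so the IIIb and IIIc splice forms that set which ligands a receptor binds cannot be told apart.

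The summed RNA of the 4 kinase receptors was similar among the sorted groups, while its composition was not. The sum was 113, 112 and 116 TPM in SOX17+, 104, 115 and 118 TPM in SOX17+/T+, 117, 124 and 114 TPM in T+, and 80.8, 89.1 and 83.3 TPM in mESC, so that the sorted groups overlapped and lay above mESC. Fgfr4 made up 21.1 ± 1.93% of it in SOX17+, 3.29 ± 0.762% in SOX17+/T+, 0.436 ± 0.068% in T+ and 0.98 ± 0.025% in mESC (SD, n = 3 each). Fgfr1 made up 42.6 ± 2.75%, 56.4 ± 1.67%, 57.3 ± 2.78% and 85.6 ± 2.08% in the same groups. Fgfrl1 RNA relative to the kinase sum was 99.9 ± 4.05% in SOX17+, 66.5 ± 3.24% in SOX17+/T+, 40.1 ± 1.44% in T+ and 13.6 ± 1.91% in mESC.

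**Figure D3:**
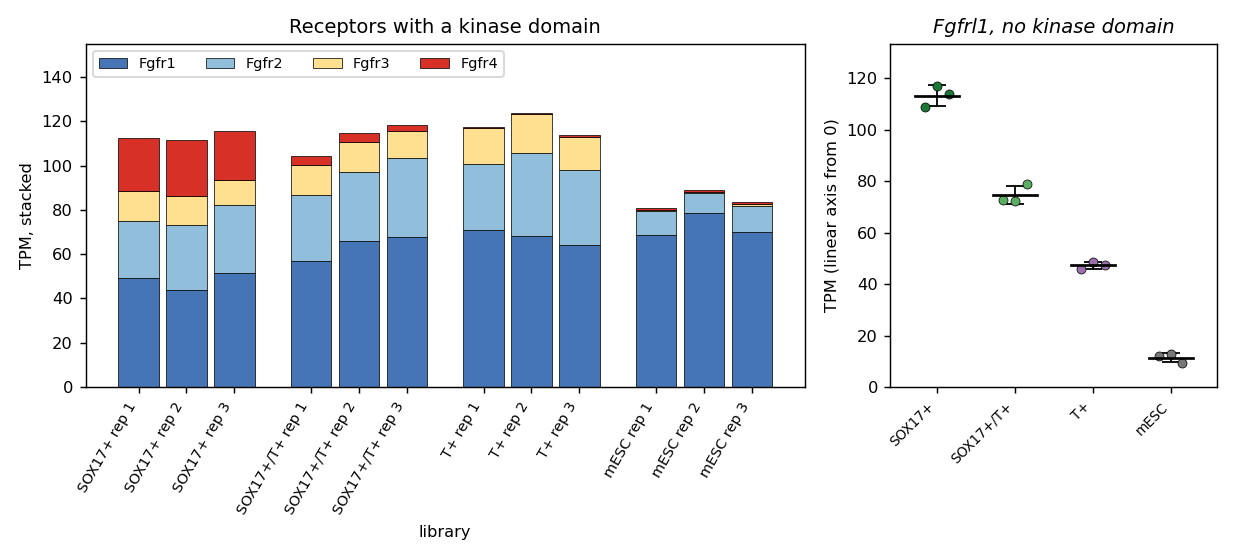
Left, TPM of the 4 receptor genes with a kinase domain, stacked for each library, with populations ordered SOX17+, SOX17+/T+, T+ and mESC; right, TPM of Fgfrl1 per library (points) with mean and SD. The sorted libraries reach similar totals of 104 to 124 TPM, the Fgfr4 segment is large in SOX17+ and thin elsewhere, and Fgfrl1 steps down from SOX17+ to mESC.

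Fgfr4, Fgfrl1 and the feedback gene Spry1 had their highest level in SOX17+, an intermediate one in SOX17+/T+ and a lower one in T+. The 250 bases before the RefSeq starts of these genes (GRCm38.p6, all on the plus strand, 5′ to 3′) are shown because the genes followed the same order of groups. They are chr13:55152568-55152817 for Fgfr4, chr5:108693979-108694228 for Fgfrl1 and chr3:37639697-37639946 for Spry1, and hold 15, 30 and 23 CpG pairs. Capitals mark the ETS letters, which in Fgfrl1 begin 48 bases before the start.
Fgfr4: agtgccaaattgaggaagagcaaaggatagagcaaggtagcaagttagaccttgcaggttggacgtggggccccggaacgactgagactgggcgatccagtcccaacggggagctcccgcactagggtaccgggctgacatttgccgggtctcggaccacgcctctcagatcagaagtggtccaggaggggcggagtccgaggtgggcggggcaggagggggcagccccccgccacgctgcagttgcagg
Fgfrl1: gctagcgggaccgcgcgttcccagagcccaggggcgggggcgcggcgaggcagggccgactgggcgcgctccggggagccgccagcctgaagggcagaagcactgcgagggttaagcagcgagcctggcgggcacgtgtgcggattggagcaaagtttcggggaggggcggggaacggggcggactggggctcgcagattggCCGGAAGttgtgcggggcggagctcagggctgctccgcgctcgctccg
Spry1: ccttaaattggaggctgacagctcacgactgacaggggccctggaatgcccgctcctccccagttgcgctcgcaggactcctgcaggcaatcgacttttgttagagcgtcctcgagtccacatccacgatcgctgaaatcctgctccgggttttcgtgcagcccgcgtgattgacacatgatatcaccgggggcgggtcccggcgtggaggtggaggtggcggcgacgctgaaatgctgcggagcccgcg

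Windows of 300 bases around the start (250 before, 50 after) were found in the RefSeq table for 26 of the 36 FGF genes, 34 windows in all, and were searched on both strands for 4 sets of letters, none of which contains another. The ETS letters CCGGAAG were in 1 of the 34 windows, that of Fgfrl1, and in 8.86% of the 32851 windows of all genes. The CRE letters TGACGTCA, the T-box letters TCACACCT and the SOX letters ACAATGG were in 0 of the 34 windows, and in 1.79%, 1.28% and 3.66% of all windows. A match is a match of letters and not a bound site, and an absence covers these windows only.

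The 9 feedback genes held much less RNA in the sorted cells. They summed to 267, 246 and 266 TPM in SOX17+, 261, 246 and 269.9 TPM in SOX17+/T+, 301, 280.4 and 300.1 TPM in T+, and 757, 759 and 784 TPM in mESC. In SOX17+ and in SOX17+/T+ cells 2 were higher and 7 lower than in mESC, and in T+ cells 1 was higher and 8 lower. Beside this, 35.4%, 34.9% and 34.5% of all tested genes were higher in SOX17+, SOX17+/T+ and T+, and 50.0%, 50.3% and 49.5% lower. The exceptions were Spry1, higher in SOX17+ and SOX17+/T+, and Dusp4, higher in all sorted groups.

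Etv4 and Etv5, ETS transcription factors of the PEA3 group that act downstream of ERK, were among the most reduced. Etv4 measured 16.3, 15.7 and 17.6 TPM in SOX17+, 19.6, 16.8 and 20.3 TPM in SOX17+/T+, 18.4, 14.6 and 15.8 TPM in T+, and 132, 135 and 128 TPM in mESC. The sorted groups overlapped and lay far below mESC (-2.92 ± 0.08, -2.74 ± 0.08 and -2.95 ± 0.08; limma, adjusted p at most 2.7e-12). Etv5 measured 44.8, 43 and 42.1 TPM in SOX17+, 32, 31.8 and 29.4 TPM in SOX17+/T+, 40.4, 36.9 and 32.7 TPM in T+, and 189.6, 188 and 189 TPM in mESC. Here the sorted groups did not overlap, and SOX17+/T+ was the lowest of them (-2.10 ± 0.06, -2.57 ± 0.06 and -2.34 ± 0.06 relative to mESC; limma, adjusted p at most 2.1e-12).

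The Sprouty genes, which encode inhibitors of receptor tyrosine kinase signalling, did not move together. Spry4 measured 6.63, 5.77 and 7.34 TPM in SOX17+, 3.51, 3.23 and 4 TPM in SOX17+/T+, 3.34, 3.38 and 3.9 TPM in T+, and 74.9, 76.5 and 102 TPM in mESC. SOX17+ kept more of it than the other sorted groups, which overlapped (-3.49 ± 0.12, -4.21 ± 0.12 and -4.22 ± 0.12 relative to mESC; limma, adjusted p at most 6.6e-12). Spry2 measured 47.6, 44.7 and 54.9 TPM in SOX17+, 43.7, 39.7 and 47.3 TPM in SOX17+/T+, 55.9, 54.1 and 58.6 TPM in T+, and 139.9, 140.5 and 142 TPM in mESC. SOX17+ overlapped both other sorted groups, and all were below mESC (-1.51 ± 0.07, -1.67 ± 0.07 and -1.31 ± 0.07; limma, adjusted p at most 1.1e-09).

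Spry1 (ENSMUSG00000037211.12, chr3:37639947-37644598, plus strand) measured 23.5, 22.1 and 24 TPM in SOX17+, 17.6, 17.1 and 17.1 TPM in SOX17+/T+, 9.62, 10.1 and 10.8 TPM in T+, and 12.1, 12.5 and 11.5 TPM in mESC. The groups did not overlap, with SOX17+ and SOX17+/T+ above mESC and T+ below it. Spry1 was higher than in mESC by 0.89 ± 0.06 in SOX17+ (limma, adjusted p = 4.2e-09) and 0.49 ± 0.06 in SOX17+/T+ (2.4e-06), and lower in T+ at -0.22 ± 0.06 (0.0022). That T+ call was lost under quantile normalization (-0.09, 0.13) and under median-of-ratios scaling (-0.11, 0.079). An opposite-strand gene, Gm42922, overlaps Spry1 and reached at most 0.381 TPM.

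The phosphatases split as well. Dusp6, which removes phosphate from ERK in the cytoplasm, measured 12.6, 11.3 and 15.6 TPM in SOX17+, 13.5, 13.8 and 18.2 TPM in SOX17+/T+, 21.2, 22.7 and 24.8 TPM in T+, and 60.6, 60.2 and 70.9 TPM in mESC. T+ lay above the other sorted groups and well below mESC (-2.20 ± 0.13, -2.01 ± 0.13 and -1.44 ± 0.13 in SOX17+, SOX17+/T+ and T+; limma, adjusted p at most 2.5e-07). Dusp4, a nuclear phosphatase of MAP kinases, measured 38.2, 38.8 and 36.6 TPM in SOX17+, 49.1, 48.4 and 58.2 TPM in SOX17+/T+, 60.2, 59.9 and 74.8 TPM in T+, and 26.1, 28.4 and 28 TPM in mESC. It was the only feedback gene above mESC in all 3 sorted groups, and no groups overlapped (0.45 ± 0.09, 0.89 ± 0.09 and 1.20 ± 0.09; limma, adjusted p at most 2.9e-04).

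Spred1 and Spred2 encode relatives of Sprouty that bring neurofibromin to RAS. Spred2 measured 29.9, 24.2 and 25.5 TPM in SOX17+, 31.2, 29.8 and 29.1 TPM in SOX17+/T+, 40.1, 33.7 and 34.2 TPM in T+, and 61.6, 61 and 58.8 TPM in mESC. All sorted libraries were below mESC and T+ was the highest sorted group (-1.16 ± 0.08, -0.99 ± 0.08 and -0.74 ± 0.08; limma, adjusted p at most 9.4e-07). Spred1 measured 47.8, 40.0 and 42.7 TPM in SOX17+, 50.7, 45.8 and 46.4 TPM in SOX17+/T+, 52.3, 45.1 and 44.5 TPM in T+, and 60.2, 56.9 and 53.1 TPM in mESC. Its libraries lay a little below mESC (-0.38 ± 0.08, -0.25 ± 0.08 and -0.26 ± 0.08; limma, adjusted p at most 0.0088), and with quantile normalization the differences became -0.10 in SOX17+, 0.06 in SOX17+/T+ and 0.04 in T+, none of them called. Median-of-ratios scaling ended the calls in SOX17+/T+ (-0.09, 0.21) and T+ (-0.13, 0.076).

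**Figure D4:**
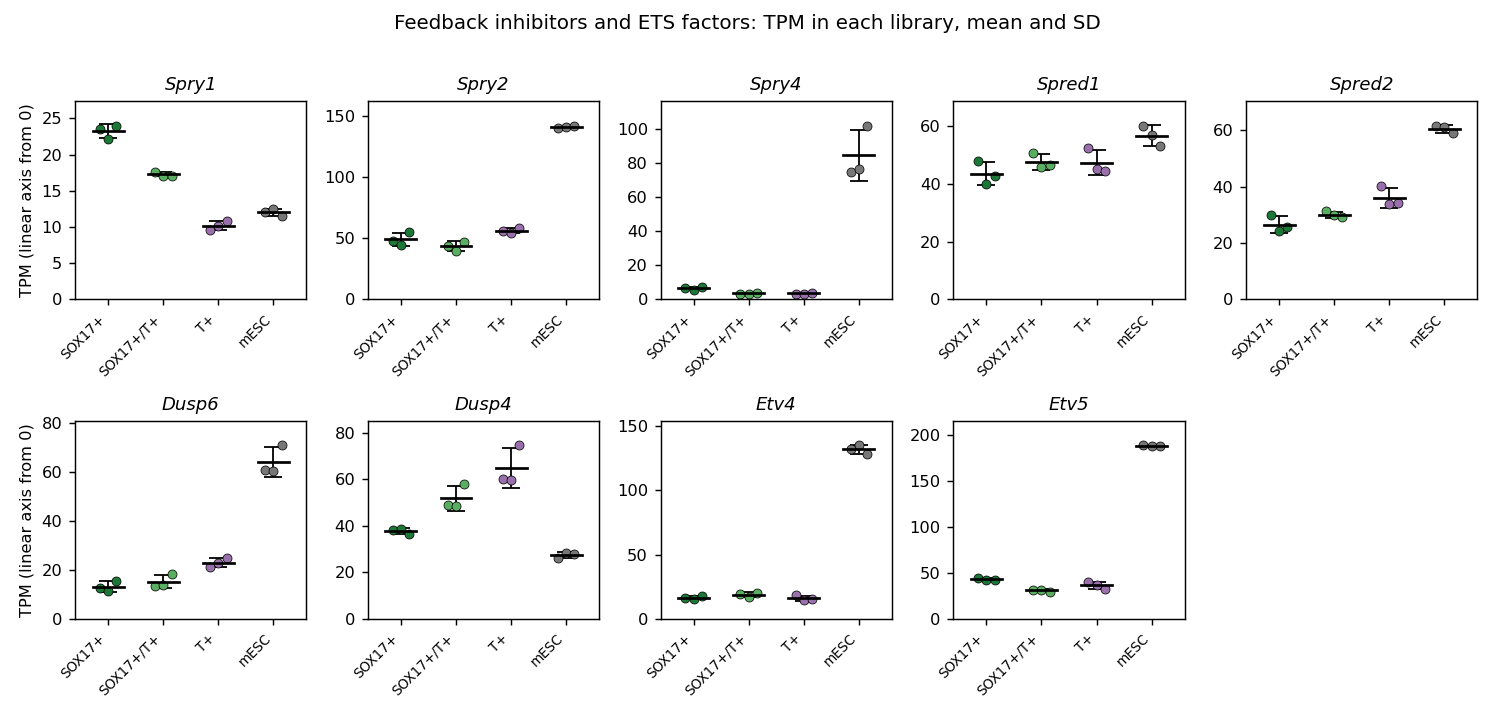
TPM of the 9 feedback genes in each library (points) with the group mean and SD (bars), on linear axes that start at 0, for SOX17+, SOX17+/T+, T+ and mESC from left to right. Spry2, Spry4, Spred2, Dusp6, Etv4 and Etv5 are far higher in mESC, where Etv5 lies at 188 to 189.6 TPM, whereas Dusp4 is lowest in mESC and Spry1 is highest in SOX17+.

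The sorted populations were then compared with each other, with the mESC libraries kept in the model for the estimate of spread. SOX17+ cells had more Fgfr4, Fgfrl1, Spry1 and Spry4 RNA than T+ cells, and less of the ligands Fgf8, Fgf18, Fgf15 and Fgf10 and of Dusp6 and Dusp4. Of the 27 tested genes 7 were higher in SOX17+ than in T+ and 14 lower, with 6 not called, beside 25.4% of all tested genes higher and 29.0% lower. Among the 10 tested ligands, 7 were lower, 1 (Fgf2) was higher and 2 were not called. Fgf2 stayed under 1 TPM in every SOX17+ and T+ library and was tested only because of its mESC level. Fgf4, 1 of the 7 lower ligands, was also tested only because of its mESC level. The ligand differences reached -3.22 ± 0.22 for Fgf8 (limma, adjusted p = 4.8e-07), -1.76 ± 0.18 for Fgf18 (2.7e-06), -1.40 ± 0.12 for Fgf15 (1.0e-06) and -1.37 ± 0.07 for Fgf10 (2.6e-09).

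The receptors differed in both directions between SOX17+ and T+. Fgfr4 was higher in SOX17+ by 4.04 ± 0.10 (limma, adjusted p = 7.8e-12) and Fgfrl1 by 1.24 ± 0.08 (3.5e-08), whereas Fgfr1 was lower at -0.48 ± 0.08 (1.4e-04) and Fgfr3 at -0.33 ± 0.08 (0.0054). Fgfr2 differed by -0.24 ± 0.10 (0.068) and was called (-0.32, 0.027) without T+ replicate 1 and (-0.24, 0.042) without mESC replicate 2. Of the 9 feedback genes 3 were higher in SOX17+, namely Spry1 (1.12 ± 0.06, 2.7e-09), Spry4 (0.74 ± 0.12, 1.5e-04) and Etv5 (0.24 ± 0.06, 0.0058), and 4 were lower, with Dusp6 at -0.76 ± 0.13 (2.4e-04) and Dusp4 at -0.76 ± 0.09 (7.3e-06). In the same comparison 25.4% of all tested genes were higher and 29.0% lower. The calls of Fgf3 and Spry2 were lost in some leave-outs of 1 library. Fgf3 (-0.39 ± 0.12, 0.013) was lost without SOX17+ replicate 1 (-0.32, 0.055) or T+ replicate 3 (-0.27, 0.063). Spry2 (-0.20 ± 0.07, 0.035) was lost without SOX17+ replicate 1 (-0.18, 0.097), SOX17+ replicate 2 (-0.13, 0.15), T+ replicate 1 (-0.20, 0.07) or T+ replicate 3 (-0.17, 0.11). The Spry2 call was also lost with no filter on low values (-0.20, 0.092).

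Markers of other SOX17-expressing or associated cell types moved with this contrast. The 6 extraembryonic endoderm markers summed to 80.6 to 93.3 TPM in SOX17+, 7.51 to 8.66 in SOX17+/T+, 2.86 to 4.21 in T+ and 19.2 to 22.8 in mESC, with 4 of 5 tested members higher in SOX17+ than in T+, Ttr at a mean of 73.5 TPM in SOX17+ and Afp at 0.434 there and at 0 in T+. The 6 primitive blood markers summed to 89.4 to 223, 10.2 to 17.9, 2.03 to 3.29 and 1.23 to 1.39 TPM in the same groups, with 5 of 5 higher in SOX17+ than in T+, and Hbb-y at 0 in every SOX17+/T+, T+ and mESC library. The 6 endothelial markers summed to 54.1 to 66, 36.3 to 38, 29.7 to 33.4 and 35.5 to 36.1 TPM, with 4 of 5 higher and 1 lower, and Emcn at 0 in T+. Of the 14 feeder fibroblast markers, 2 were higher and 7 lower in SOX17+ than in T+, and 1 was higher and 5 lower in SOX17+/T+ than in T+, with the sums given above highest in T+ among the sorted groups. Over all tested genes, 25.4% were higher and 29.0% lower in SOX17+ than in T+, and 12.6% and 15.8% in SOX17+/T+ than in T+. In T+, 5 of the 6 primitive blood, 4 of the 6 endothelial and 4 of the 6 extraembryonic endoderm markers averaged under 1 TPM. The filter may thus have favoured their calls as higher in SOX17+. The part of any of these cell types in the differences of FGF genes between sorted groups was not tested.

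SOX17+/T+ cells had more Fgfr4, Fgfrl1, Spry1, Fgf5 and Fgf14 RNA than T+ cells. Of the 27 genes 5 were higher and 12 lower in SOX17+/T+ than in T+, and 10 were not called, beside 12.6% and 15.8% of all tested genes. Fgfr4 was higher by 1.61 ± 0.10 (limma, adjusted p = 1.5e-07), Spry1 by 0.71 ± 0.06 (9.7e-07) and Fgfrl1 by 0.65 ± 0.08 (5.9e-05). Among the lower genes were Dusp6 at -0.58 ± 0.13 (0.0046), Fgf13 at -0.47 ± 0.09 (0.0013), Fgf10 at -0.46 ± 0.07 (2.7e-04), Fgf4 at -0.46 ± 0.09 (0.0017) and Spry2 at -0.36 ± 0.07 (0.0022).

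Those calls, with that of Fgf14 (0.84 ± 0.16, limma, adjusted p = 0.0017), made up the 9 of 17 that held in every leave-out of 1 library in which the gene was tested. Fgf14 fell under the filter, and was not tested, without SOX17+ replicate 1, SOX17+ replicate 3 or SOX17+/T+ replicate 3. Fgf4 was tested only because of its mESC level. Fgf5 (1.04 ± 0.27, 0.015) exceeded T+ in each same-numbered pair. With same-numbered libraries of all 4 groups blocked, its adjusted p was 2.1e-04 in limma, but the labels do not state such a pairing. Without the block, the call was lost without T+ replicate 2 (0.84, 0.056) and with only the groups compared (1.04, 0.053). Fgf18 (-0.67 ± 0.18, 0.013) was lost without SOX17+/T+ replicate 1 (-0.53, 0.058), and Fgf8 (-0.87 ± 0.22, 0.014) without SOX17+/T+ replicate 2 (-0.74, 0.055) or T+ replicate 1 (-0.76, 0.051). Etv5 (-0.23 ± 0.06, 0.016) was lost without SOX17+/T+ replicate 3 (-0.19, 0.058) or T+ replicate 1 (-0.16, 0.07), and Dusp4 (-0.32 ± 0.09, 0.015) without SOX17+/T+ replicate 1 (-0.28, 0.061), SOX17+/T+ replicate 2 (-0.27, 0.063) or T+ replicate 3 (-0.21, 0.053). Spred2 (-0.25 ± 0.08, 0.028) was lost without SOX17+/T+ replicates 2 (-0.24, 0.072) or 3 (-0.23, 0.075) or T+ replicate 1 (-0.17, 0.12), Fgfr3 (-0.28 ± 0.08, 0.025) without SOX17+/T+ replicate 3 (-0.22, 0.093), T+ replicate 1 (-0.29, 0.058) or T+ replicate 2 (-0.21, 0.11), and Fgf17 (-0.82 ± 0.26, 0.035) without SOX17+/T+ replicates 2 or 3 or T+ replicates 1 or 2 (-0.80 to -0.56, 0.092 to 0.11). With same-numbered libraries paired, Etv4 was called higher in SOX17+/T+ than in T+ (0.21, adjusted p = 0.049), which it was not without the pairing (0.21 ± 0.08, 0.082; both limma).

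SOX17+ cells had more Fgfr4 and Fgfrl1 than SOX17+/T+ cells, and less Fgf8, Fgf18, Fgf15 and Fgf10. Of the 27 genes 6 were higher and 9 lower in SOX17+ than in SOX17+/T+, with 12 not called, beside 19.8% and 16.8% of all tested genes. The 6 higher ones were Fgfr4 (2.42 ± 0.10, limma, adjusted p = 5.4e-09), Spry4 (0.73 ± 0.12, 3.3e-04), Fgfrl1 (0.59 ± 0.08, 8.6e-05), Etv5 (0.47 ± 0.06, 7.6e-05), Spry1 (0.40 ± 0.06, 9.6e-05) and Fgf2. The largest of the lower ones were Fgf8 (-2.35 ± 0.22, 1.6e-05), Fgf18 (-1.10 ± 0.18, 3.6e-04), Fgf15 (-1.09 ± 0.12, 2.3e-05) and Fgf10 (-0.92 ± 0.07, 5.0e-07). Fgf2 (0.23 ± 0.08, 0.037), which stayed under 1 TPM in both groups, was lost without SOX17+ replicates 2 or 3 or SOX17+/T+ replicates 1 or 2 (0.18 to 0.21, 0.11 to 0.14), and Fgf3 (-0.32 ± 0.12, 0.045) without SOX17+ replicates 1 or 2, SOX17+/T+ replicate 3, or mESC replicates 1 or 2 (-0.34 to -0.20, 0.051 to 0.19).

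**Figure D5:**
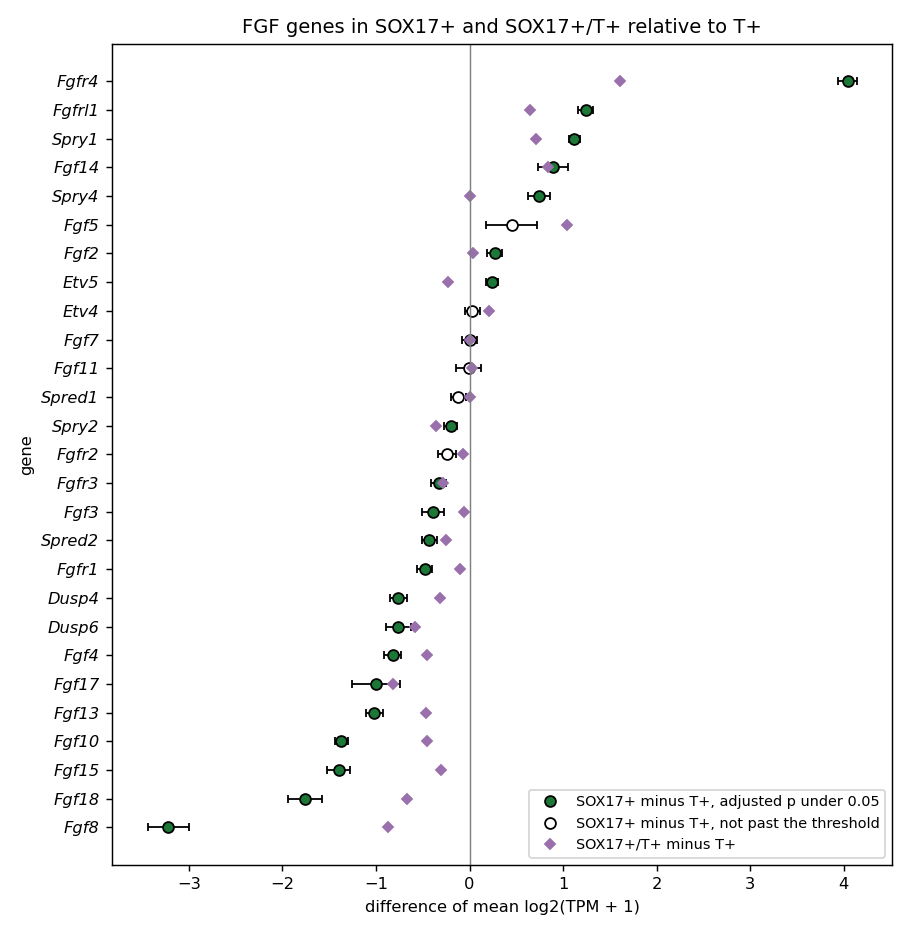
Difference of mean log2(TPM + 1) from T+ for each tested FGF gene, in SOX17+ (circles with SE, filled where the adjusted p was under 0.05) and in SOX17+/T+ (diamonds), ordered by the SOX17+ value. Fgfr4 stands alone at 4.04 for SOX17+ and 1.61 for SOX17+/T+, and Fgf8 lies at the other end with -3.22 and -0.87; both sets of values share the T+ libraries.

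Whether the double-positive cells lie between the single-positive ones was examined last. Of the 21 FGF genes called between SOX17+ and T+, 19 (90.5%) had their SOX17+/T+ mean between both, beside 7564 of 8767 genes (86.3%) over the whole table. The exceptions were Spry2 and Etv5, which were lowest in SOX17+/T+. Relative to the midpoint of the SOX17+ and T+ means, 3 FGF genes were higher in SOX17+/T+, 4 were lower and 20 were not called, beside 4.43% and 5.44% of all tested genes. Of all genes so called 44.9% were higher, and 54.1% after median-of-ratios scaling or 55.9% after quantile normalization. With either of these scalings, 5 FGF genes were higher and 3 lower. The count of 7 FGF genes fell to 3 without SOX17+/T+ replicate 1 or T+ replicate 2, and to 4 without SOX17+ replicate 1, SOX17+/T+ replicate 2 or SOX17+/T+ replicate 3. Fgf5 lay above the midpoint by 0.82 ± 0.24 (limma, adjusted p = 0.053), and was called with same-numbered libraries blocked (0.0019).

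The 3 above the midpoint were the ligands Fgf8 (0.74 ± 0.19, limma, adjusted p = 0.036), Fgf15 (0.40 ± 0.11, 0.036) and Fgf10 (0.23 ± 0.06, 0.029), so that on the log2(TPM + 1) scale their SOX17+/T+ level was nearer to T+. On the linear scale this did not hold for Fgf8, with means of 65.3 TPM in SOX17+/T+, 12.4 TPM in SOX17+ and 120.3 TPM in T+. The 4 below it were Fgfr4 (-0.41 ± 0.09, 0.013), Etv5 (-0.35 ± 0.05, 0.0019), Spry2 (-0.26 ± 0.06, 0.019) and Spry4 (-0.36 ± 0.10, 0.044). Etv5 and Fgfr4 held without any 1 library, but with a pseudocount of 0.1 the Fgfr4 difference was -0.04 (0.9). Fgf8 was lost in 9 of the 12 leave-outs, all but those of SOX17+ replicates 2 and 3 and T+ replicate 1 (0.66 to 0.87, 0.051 to 0.13). Fgf15 was lost in 7 leave-outs, of each SOX17+ library, SOX17+/T+ replicates 2 and 3 and T+ replicates 1 and 2 (0.25 to 0.42, 0.051 to 0.11), and Spry4 in 7, of SOX17+ replicates 1 and 3, SOX17+/T+ replicates 1 and 2 and each T+ library (-0.37 to -0.30, 0.06 to 0.18). Fgf10 was lost in 4, of SOX17+ replicate 3, SOX17+/T+ replicates 1 and 3 and T+ replicate 2 (0.19 to 0.24, 0.052 to 0.11), and Spry2 without SOX17+/T+ replicates 1 or 2 (-0.27 and -0.20, 0.063 and 0.1).

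Other genes of the pathway were examined as 4 lists. Of 10 co-receptors and partners, 8 were tested; 4 were higher and 4 lower than in mESC in SOX17+, 3 and 4 in SOX17+/T+, and 4 and 4 in T+. Over all tested genes, 35.4% were higher and 50.0% lower in SOX17+, 34.9% and 50.3% in SOX17+/T+, and 34.5% and 49.5% in T+, and the same shares stand beside the lists that follow. Flrt3, a transmembrane protein that binds FGF receptors, measured 56, 49.9 and 57 TPM in SOX17+, 38.6, 33.6 and 34.8 TPM in SOX17+/T+, 10.7, 9.25 and 14.9 TPM in T+, and 5.89, 6.22 and 5.54 TPM in mESC. It thus followed the order of Fgfrl1 without overlap between groups (2.15 ± 0.13 for SOX17+ against T+; limma, adjusted p = 2.6e-08). Cdh2 (N-cadherin) and Ncam1, adhesion molecules that bind FGF receptors, were lower in SOX17+ than in T+ (-1.09 ± 0.10, 7.8e-07, and -2.46 ± 0.12, 2.1e-09), while Fgfbp3, a carrier that releases FGFs, was higher (1.06 ± 0.09, 2.6e-07). Klb, which encodes the co-receptor beta-Klotho through which FGF15 acts on FGFR4 in liver, is named after its values were seen; it measured 2.17, 1.83 and 1.99 TPM in SOX17+, 0.163, 0.12 and 0.125 TPM in SOX17+/T+, 0.0514, 0.04 and 0.0469 TPM in T+, and 0.536, 0.72 and 0.697 TPM in mESC. Its SOX17+ libraries stood above all others, at a low level (1.52 ± 0.07 against T+, 8.0e-10). Klb passed the filter only through the SOX17+ libraries. The direction of this difference was thus set by the filter, and the call is a description only.

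The relay from receptor to ERK had members called in both directions. Beside the shares of all genes given above for each comparison (35.4% higher and 50.0% lower for SOX17+ against mESC), of its 22 genes, all tested, 7 were higher and 8 lower than in mESC in SOX17+, 8 and 7 in SOX17+/T+, and 9 and 10 in T+, with summed levels of 1328 to 1418 TPM in SOX17+, 1326 to 1364 in SOX17+/T+, 1291 to 1352 in T+ and 1298 to 1329 in mESC. Between SOX17+/T+ and T+ 2 were higher, 3 lower and 17 not called, beside 12.6% and 15.8% of all genes. The adaptor Gab1 averaged 45.6 ± 3.35 TPM in SOX17+, 49 ± 2.71 in SOX17+/T+, 46.5 ± 2.55 in T+ and 160.4 ± 3.41 in mESC (SD, n = 3 each), and was lower in every sorted group. Mapk3, which encodes ERK1, went the other way with 312 ± 14.9, 296 ± 16.6, 282 ± 7.55 and 118 ± 0.431 TPM. Hras was graded among the sorted groups, at 55.3 ± 5.79 TPM in SOX17+, 39.2 ± 0.951 in SOX17+/T+, 28.2 ± 1.77 in T+ and 77.6 ± 1.6 in mESC.

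Further ERK feedback and target genes were mostly lower in the sorted cells. Of 14 genes measured, 2 (Phlda1 and Dusp7, named after their values were seen) were higher and 12 lower than in mESC in each of the 3 sorted groups, with list medians of -1.81 in SOX17+, -1.80 in SOX17+/T+ and -1.65 in T+ beside -0.18, -0.19 and -0.17 over all genes. The immediate-early gene Egr1 averaged 6.84 ± 2.16 TPM in SOX17+, 4.36 ± 0.623 in SOX17+/T+, 3.54 ± 0.528 in T+ and 80.0 ± 9.13 in mESC (SD, n = 3 each). Fosl1, an AP-1 subunit, was listed at 0 in all sorted libraries and at 14, 13.6 and 13.1 TPM in mESC. It is 1 of the 12 lower genes, but it passed the filter only through the mESC libraries, which set its direction. Etv1, the third PEA3 factor, separated the sorted groups, with 0.988 ± 0.204 TPM in SOX17+, 5.51 ± 1.02 in SOX17+/T+, 10.1 ± 1.98 in T+ and 20.5 ± 2.39 in mESC (-2.48 ± 0.14 for SOX17+ against T+; limma, adjusted p = 1.1e-08). Many of these genes are expressed by fibroblasts too, and the part of the feeder RNA in their mESC level was not tested.

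Of 23 genes for heparan sulphate synthesis and its carrier proteins, 21 were tested; 9 were higher and 6 lower than in mESC in SOX17+, 12 and 6 in SOX17+/T+, and 12 and 7 in T+, beside 35.4% and 50.0%, 34.9% and 50.3%, and 34.5% and 49.5% of all genes. Gpc3, a glypican, dominated the list with 868 ± 29.6 TPM in SOX17+, 876 ± 2.85 in SOX17+/T+, 1175 ± 9.19 in T+ and 27.3 ± 0.643 in mESC (SD, n = 3 each). Gpc4 was lower in every sorted group and graded among them, with 20.1 ± 1.95, 16.6 ± 1.71, 6.04 ± 0.155 and 95.1 ± 5.35 TPM. Hs6st1, an enzyme that places sulphate on heparan chains, was higher in SOX17+ than in T+ (26.4 ± 1.54 and 12.5 ± 0.669 TPM; 1.02 ± 0.06, limma, adjusted p = 9.1e-09).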

How the data were processed

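Polyadenylated RNA of 12 libraries (3 each of SOX17+, SOX17+/T+, T+ and mESC) was sequenced with a strand-preserving kit, per the labels' protocols. The authors deposited 1 table of TPM values per gene; the submitters' processing notes name cutadapt, STAR, StringTie and the builds mm10 and GRCm38, without versions or annotation release. Raw counts were not used here, so the read depth is unknown and no count model was fitted. Of 54480 table lines, 282 empty cells were set to 0 and lines of 11 genes listed more than once were summed, which left 54446 genes.

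Values were analysed as log2(TPM + 1) with limma 3.58.1 in R 4.3.3, in 1 model of 4 groups with a trended, robust variance prior. Genes with at least 1 TPM in at least 3 libraries were tested, with Benjamini-Hochberg adjustment across the whole tested set. The 6 pairwise comparisons and SOX17+/T+ against the midpoint of SOX17+ and T+ were fitted. The procedure was tested on simulated data. The FGF genes and gene lists were chosen with earlier results of these data known. Values in every library are given for FGF genes with a mean of at least 5 TPM in a group and a call in some comparison, which 25 met. From each list, up to 6 called genes with the largest differences and the most abundant genes are named; Klb, Phlda1 and Dusp7 were chosen after their values were seen.

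Same-numbered libraries of SOX17+/T+ and T+ deviated together from their group means (correlations of 0.149 to 0.242 for the 3 pairs), which is taken from the data and not from the labels; no other pair of groups passed 0.1 in all 3 pairs. Alternatives were a pseudocount of 0.1, no filter, median-of-ratios scaling, quantile normalization, only the groups compared, a plain variance prior, a replicate block, and leaving out each library. Promoter windows are from RefSeq on GRCm38.p6, the build of the table's coordinates.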

Additional observations from a re-analysis of the deposited data

Results flagged for a closer look

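Fgfr4 and Spry1 differed from mESC in opposite directions in the sorted groups, which share the mESC libraries. Fgfr4 was above mESC in SOX17+ and SOX17+/T+ and below it in T+, and the direct differences were 4.04 for SOX17+ against T+ and 1.61 for SOX17+/T+ against T+ (limma, adjusted p = 7.8e-12 and 1.5e-07). Spry1 did likewise, with 1.12 for SOX17+ against T+ and 0.71 for SOX17+/T+ against T+ (limma, adjusted p = 2.7e-09 and 9.7e-07). For both genes every SOX17+ and SOX17+/T+ library lay above every mESC library and every T+ library lay below. The small T+ differences from mESC depended on the processing. For Spry1 the call was lost under median-of-ratios scaling (-0.11, limma, adjusted p = 0.079) and quantile normalization (-0.09, 0.13). For Fgfr4, under 1 TPM in T+ and mESC, it was lost under median-of-ratios scaling (-0.21, 0.08) and without T+ replicate 1 or mESC replicate 2. The sign of the Fgfr4 difference turned under quantile normalization.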

How the results depend on the processing

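Of the 138 calls of FGF genes over the 7 comparisons, 113 were made under every setting in which the gene was tested. Some genes fell under the filter in some settings. Among them, Fgf2, Fgf7 and Fgf14 were tested in only 15 or 16 of the 19 settings run beside the main one. Counts of calls moved by more than 1.5 times in 2 comparisons: SOX17+/T+ against T+ with only the groups compared (11 FGF genes, against 17), and the midpoint comparison with no filter (2 FGF genes, against 7; 1056 of all genes, against 1589) and in some of the leave-outs of 1 library, which gave 3 to 7 FGF genes and 829 to 1445 of all genes (lowest without SOX17+/T+ replicate 1). Under quantile normalization the sign turned for Spred1 against mESC in SOX17+/T+ (0.06) and T+ (0.04), for Fgfr1 in SOX17+/T+ (0.16) and T+ (0.24), and for Fgfr4 in T+ (0.22). With the replicate block, which pairs same-numbered libraries, 24 FGF genes were called for SOX17+ against T+ (21 without), 18 for SOX17+/T+ against T+ (17), 20 for SOX17+ against SOX17+/T+ (15) and 10 for the midpoint (7). Fgf5 was among those gained, for SOX17+ against T+ (0.45, limma, adjusted p = 0.017), SOX17+ against SOX17+/T+ (-0.59, 0.006) and the midpoint (0.82, 0.0019). The pairing rests on the data alone for SOX17+/T+ and T+, and for the other pairs of groups the libraries share only a number. The cause of these changes was not tested. TPM values hold no depth, so the precision of values under 1 TPM is unknown.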
